A study of Caenorhabditis elegans with 6 samples.

Results

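The transcripts of 10 genes that code for proteins of the muscle thin filament and for the myosin light chains were followed in RNA-seq of *Caenorhabditis elegans*. The genes were taken by their identifiers: the actins *act-1*, *act-2*, *act-3* and *act-4*, the tropomyosin gene *lev-11*, the troponin I gene *unc-27*, the troponin T gene *mup-2*, and the myosin light chain genes *mlc-1*, *mlc-2* and *mlc-3*. They are 10 of the 46661 genes in the count table, and all 10 are among the 15432 genes that passed the filter on low counts. The wild-type strain N2 was compared with *folr-1(syb4116)*, a CRISPR/Cas9-made allele with a premature stop codon in *folr-1*, which codes for the worm's folate receptor. The mutant was 1 strain. Animals of both strains were grown at 20 °C on *Escherichia coli* HT115 carrying the empty RNAi vector and were frozen whole as L4 larvae. There were 3 biological replicates, and so 3 libraries, of each strain. The comparison asks which transcripts differ in whole animals when FOLR-1 is lost.

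In muscle, actin polymerises into the thin filament, along which tropomyosin lies and to which the troponin complex is bound. Troponin C binds calcium, troponin I holds the filament in the inhibited state, and troponin T ties the complex to tropomyosin. Myosin forms the thick filament, where each heavy chain carries a regulatory and an essential light chain on its neck. Nematode body wall and pharyngeal muscle use partly different members of these families, and actin and some tropomyosin isoforms are also used outside muscle.

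The libraries held from 21646678 to 25946226 counts. The replicates of each strain differed by more than counting noise, with a chi-square of 3.29 to 8.64 per degree of freedom. *folr-1* itself was read 32, 37 and 59 times in N2 and 14, 11 and 7 times in the mutant (adjusted p = 4.99e-04, edgeR quasi-likelihood, Benjamini-Hochberg). Values below are CPM, that is counts per 1000000 of the TMM-scaled library size, unless FPKM is named. A gene was called when its adjusted p over all tested genes was under 0.05. Of all tested genes 6.95% were called, 3.64% higher and 3.32% lower in the mutant.

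None of the 10 genes was called in either direction. The fitted log2 fold changes of mutant over N2 ran from -0.08 for *unc-27* to 0.10 for *mup-2*, and the 95% intervals of the 10 genes together reached from 0.898-fold to 1.13-fold. Of the 10 log2 fold changes, 8 were above 0, and their median was 0.05, against a median of 0.00 over all tested genes. An unadjusted p under 0.05 was found for *act-4*, *mlc-2* and *mup-2*, which makes 3 genes by edgeR. Over all tested genes, 3123 of 15432 had an unadjusted p under 0.05 in the same fit. DESeq2, limma-voom and limma on FPKM also called 0 of the 10, with 2, 4 and 0 genes at an unadjusted p under 0.05. Over all tested genes, limma on log2(FPKM + 1) called only 77 higher and 176 lower. The ranges of the strains did not overlap for 3 genes that were higher in the mutant libraries (*act-4*, *lev-11* and *mup-2*) and for 1 that was lower (*unc-27*). Over all tested genes 12.3% did not overlap with the mutant higher and 12.9% with the mutant lower.

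The 10 genes together made up 1.15%, 1.17% and 1.18% of all reads counted in N2 and 1.19%, 1.17% and 1.18% in the mutant, with means of 1.17% ± 0.0137 and 1.18% ± 0.0120 (SD, n = 3). These unscaled shares overlapped between the strains. After TMM scaling their summed CPM was between 11466 and 11651 in the N2 libraries and between 11822 and 12111 in the mutant libraries. The separation of the strains in this sum was therefore seen only with the scaling. In RNA of whole animals, a different amount of muscle and a different amount of transcript per muscle cell cannot be told apart.

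**Figure D1:**
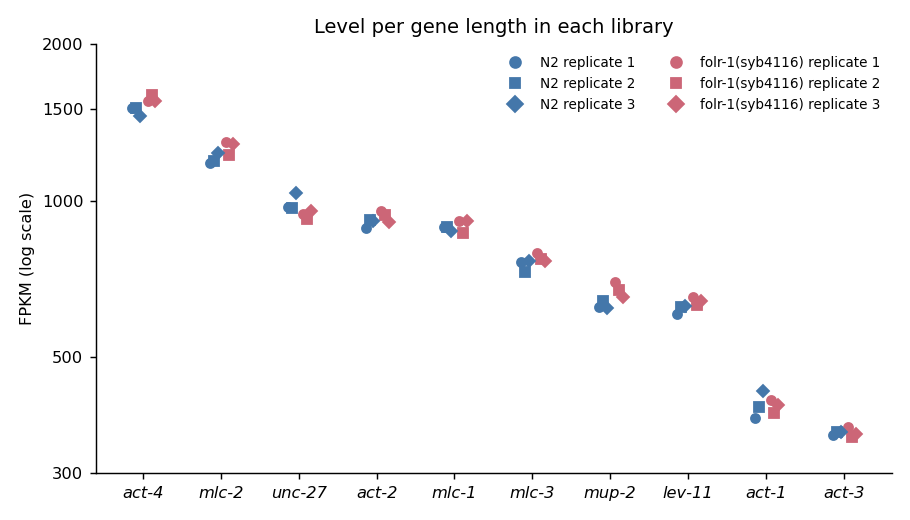
Level of each of the 10 genes in each library as FPKM (y axis, log scale), with genes ordered on the x axis by their mean over the 6 libraries. Blue symbols are the 3 N2 libraries and red symbols the 3 *folr-1(syb4116)* libraries; *act-4* lies highest at 1457 to 1595 and *act-3* lowest at 351 to 368.

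Levels can be compared between genes only per length, for which the deposited FPKM were used. The order by mean FPKM over the 6 libraries was *act-4* (1529), *mlc-2* (1234), *unc-27* (967), *act-2* (920.4), *mlc-1* (893), *mlc-3* (765), *mup-2* (652), *lev-11* (631), *act-1* (404) and *act-3* (358), as the plot of levels by library shows. Neighbours in this order had separate ranges except for *unc-27* and *act-2*, *act-2* and *mlc-1*, and *mup-2* and *lev-11*. These pairs kept the order of their means in 4, 4 and 5 of the 6 libraries, and the other neighbours in all 6.

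Among the actins, the largest fitted difference was that of *act-4* (M03F4.2, WBGene00000066), an actin gene of body wall muscle and other tissues. It lies on chromosome X at 4960621 to 4964413 on the plus strand (WBcel235), has 2 annotated transcripts and was the gene with the 18th highest count of those tested. Its CPM was 2719.8, 2726 and 2635 in N2 and 2813, 2880.5 and 2812 in the mutant. Every mutant library was above every N2 library. The means were 2694 ± 50.5 (SD, n = 3) and 2835 ± 39.1 (SD, n = 3), a difference of 5.26%. The log2 fold change was 0.07 (SE 0.032) and the adjusted p was 0.193 (edgeR quasi-likelihood, Benjamini-Hochberg), so the gene did not pass.

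The other actins form a cluster on chromosome V. *act-3* (T04C12.4, WBGene00000065) lies at 11071690 to 11074498 and *act-2* (T04C12.5, WBGene00000064) at 11076777 to 11078154, both on the minus strand and 2278 bp apart. *act-1* (T04C12.6, WBGene00000063) lies at 11081052 to 11082415 on the plus strand, 2897 bp from *act-2*. Between them the annotation places only genes of non-coding RNA. The coding sequences of these actins are nearly identical, so how reads were divided among them is uncertain.

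*act-2* was the most abundant of the cluster, with CPM of 1183, 1228 and 1223 in N2 and 1283, 1258 and 1219.5 in the mutant. The highest values were mutant, but mutant replicate 3 lay within the N2 range. The log2 fold change was 0.05 (SE 0.035, adjusted p = 0.469, edgeR quasi-likelihood, Benjamini-Hochberg). For *act-1* the CPM was 559, 589 and 631 in N2 and 608, 572 and 595 in the mutant. All mutant values lay inside the N2 range, which was the widest of the 10 genes for its level, with a coefficient of variation of 6.12%. *act-3* showed the narrowest N2 range of the actins for its level, with 557, 566 and 567 in N2 against 579.5, 552 and 562 in the mutant. The mutant values lay on both sides of the N2 values. For both *act-1* and *act-3* the fitted log2 fold change was 0.00 to the second decimal, with 95% intervals of 0.936- to 1.06-fold and 0.952- to 1.05-fold.

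The makeup of the actin mRNA was also compared within each library, where scaling between libraries plays no part. Of the summed FPKM of the 4 genes, *act-4* took 47.2% ± 1.04 in N2 and 48.0% ± 0.753 in the mutant (SD, n = 3), and these values overlapped. The share of *act-2* was 28.7% in N2 and 28.6% in the mutant, and that of *act-1* was 12.8% and 12.36%. The share of *act-3* was 11.3% ± 0.0540 (SD, n = 3) and 10.98% ± 0.235 (SD, n = 3), lower in every mutant library. Its two-sided exact permutation p was 0.1, the smallest that 3 libraries against 3 allow, and 0.32 after Benjamini-Hochberg adjustment over the 16 shares compared. The log2 ratio of *act-4* to the sum of the cluster differed by 0.05 between the strains (exact permutation p = 0.5).

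*lev-11* (Y105E8B.1, WBGene00002978) is the tropomyosin gene, and its alternative promoters and exons give isoforms for body wall muscle, pharynx and other tissues. It lies on chromosome I at 14621169 to 14631094 on the minus strand and has 20 annotated transcripts, which the gene counts do not separate. Its CPM was 1526, 1574 and 1583 in N2 and 1647, 1589 and 1618 in the mutant. All mutant libraries were above all N2 libraries, with mutant replicate 2 only just above N2 replicate 3. The means were 1561 ± 30.6 (SD, n = 3) and 1618 ± 29.0 (SD, n = 3), and the log2 fold change of 0.05 (SE 0.033) had an adjusted p of 0.412 (edgeR quasi-likelihood, Benjamini-Hochberg). The difference relative to actin was smaller than the spread between replicates. The ratio of *lev-11* FPKM to the summed actin FPKM was between 0.193 and 0.199 in every library of either strain, and its log2 difference between the strains was 0.00 (exact permutation p = 0.9).

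**Figure D2:**
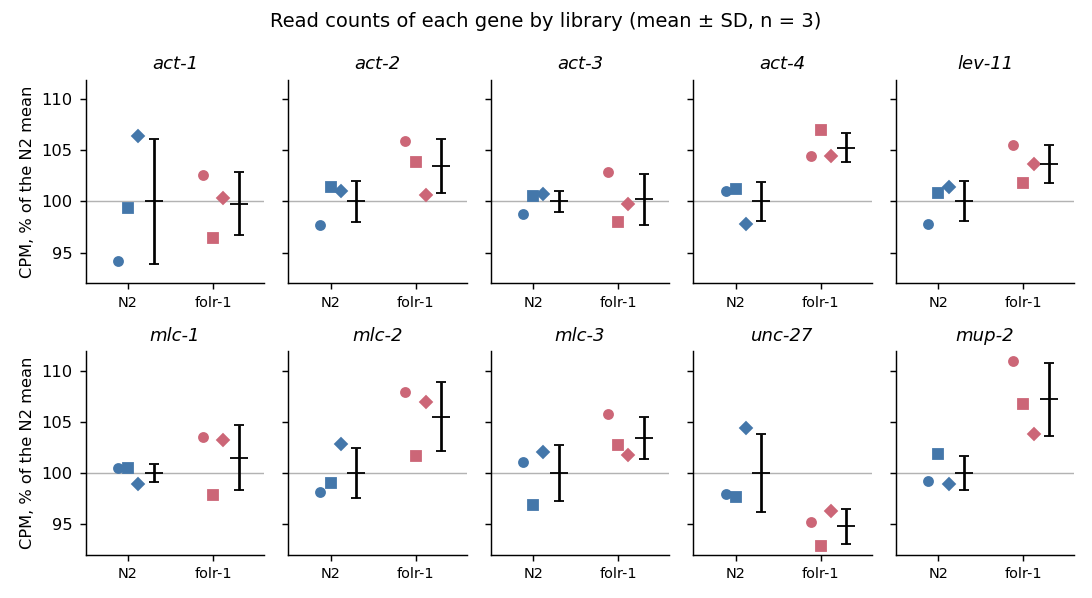
CPM of each of the 10 genes in each library, as a percentage of the gene's N2 mean (y axis, which does not start at 0), for N2 (blue) and *folr-1(syb4116)* (red). Circles, squares and diamonds are replicates 1, 2 and 3, and black bars are the mean ± SD (n = 3); the mutant mean differs from that of N2 by 7.2% for *mup-2* and by -5.20% for *unc-27*.

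The 2 troponin genes in the set lay at opposite ends of the range. *mup-2* (T22E5.5, WBGene00003495), the troponin T gene of body wall muscle, lies on chromosome X at 6408471 to 6410227 on the minus strand. Its CPM was 1004, 1031 and 1002 in N2 and 1124, 1081 and 1052 in the mutant. All mutant libraries were above all N2 libraries. The means were 1013 ± 16.4 (SD, n = 3) and 1085 ± 36.3 (SD, n = 3). Of the 10 genes it had the largest log2 fold change, 0.10 (SE 0.036), and the lowest p, 0.0122 unadjusted and 0.110 adjusted (edgeR quasi-likelihood, Benjamini-Hochberg).

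*unc-27* (ZK721.2, WBGene00006764), the main troponin I gene of body wall muscle, lies on chromosome X at 8789456 to 8790621 on the plus strand, 1.13 Mb from *folr-1*. Its CPM was 912, 909.6 and 972 in N2 and 886, 865 and 897 in the mutant. All mutant libraries were below all N2 libraries, and N2 replicate 3 stood above the other N2 libraries. The log2 fold change was -0.08 (SE 0.037), with an unadjusted p of 0.0521 and an adjusted p of 0.252 (edgeR quasi-likelihood, Benjamini-Hochberg). Without N2 replicate 3 it was -0.04.

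The FPKM ratio of *unc-27* to *mup-2* was 1.56, 1.51 and 1.66 in N2 and 1.35, 1.37 and 1.46 in the mutant. It was lower in every mutant library, by 0.885-fold on average. The exact permutation p of 0.1 was the smallest the design allows, and 0.5 after adjustment over the 5 ratios compared. The other 4 ratios overlapped between the strains.

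Other genes of the same subunits gave a context for these values. Of 8 further troponin genes, 1 was called higher and 1 lower, and their median log2 fold change was -0.04. The minor troponin I gene *tni-1* rose from 145 ± 4.29 to 160.2 ± 1.67 CPM (SD, n = 3). Its log2 fold change of 0.14 had an adjusted p of 0.0378 (edgeR quasi-likelihood, Benjamini-Hochberg). Of the 6 fits that left out a library, only that without N2 replicate 3 kept this call (edgeR adjusted p = 0.043). Leaving out any of the other 5 libraries gave adjusted p from 0.075 to 0.15, and the correction for gene length gave 0.061. *tni-3*, also a troponin I gene, fell from 69.5 ± 5.59 to 53.0 ± 0.776 CPM (SD, n = 3). Its log2 fold change was -0.39 with an adjusted p of 2.07e-04, and it kept the call in all 6 fits that left out a library.

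Within the summed troponin I FPKM, *unc-27* made up 77.6% ± 0.417 in N2 and 77.2% ± 0.391 in the mutant (SD, n = 3), and the strains overlapped. The share of *tni-1* was 10.9% ± 0.285 and 12.56% ± 0.30, and that of *tni-3* was 5.62% ± 0.498 and 4.495% ± 0.111 (SD, n = 3 each), without overlap. Each of these shares had an exact permutation p of 0.1, the smallest possible, and 0.32 after adjustment over the 16 shares. The pharyngeal troponin I gene *tni-4* took 5.87% in N2 and 5.76% in the mutant, with overlap.

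Within troponin T, *mup-2* made up 49.9%, 50.2% and 50.1% in N2 and 53.7%, 53.0% and 52.9% in the mutant. The second gene, *tnt-2*, had 41.8%, 41.3% and 41.5% in N2 and 37.8%, 38.7% and 38.9% in the mutant. On average *mup-2* was 3.12 percentage points higher and *tnt-2* lower (-3.05 percentage points) in the mutant, both beyond the spread between replicates. Each had an exact permutation p of 0.1 and an adjusted value of 0.32 over the 16 shares. *tnt-2*, named here after its values were seen, did not pass the test on counts (log2 fold change -0.10, adjusted p = 0.0942, edgeR quasi-likelihood, Benjamini-Hochberg). The pharyngeal *tnt-4* had 5.39% in N2 and 5.31% in the mutant, with overlap.

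Troponin C was nearly all from *pat-10*, the body wall muscle gene, with 98.4% of the summed FPKM in N2 and 98.6% in the mutant, and the rest from the pharyngeal *tnc-2*. *pat-10* had an FPKM of 1596 ± 75.4 in N2 and 1645 ± 44.1 in the mutant (SD, n = 3), and its log2 fold change on counts was 0.04 (adjusted p = 0.593, edgeR quasi-likelihood, Benjamini-Hochberg).

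**Figure D3:**
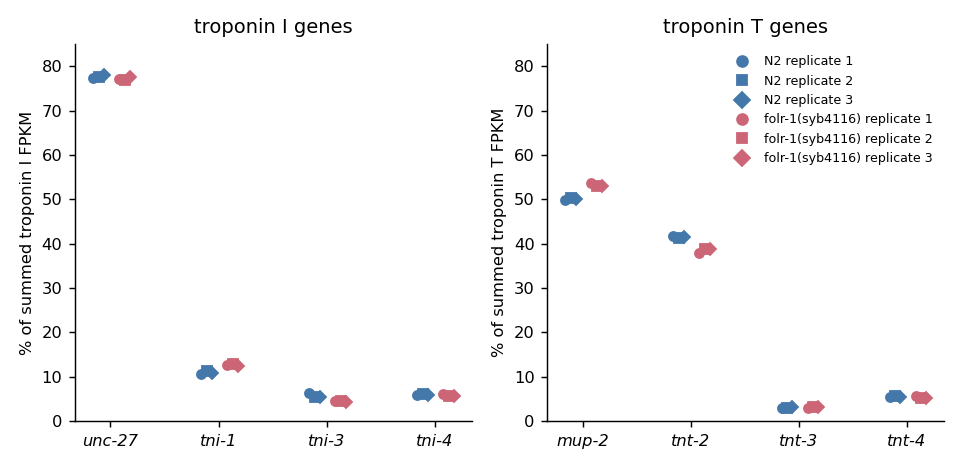
Share of each gene in the summed FPKM of its troponin family (y axis, percent) in each library, for troponin I on the left and troponin T on the right. Blue symbols are N2 and red symbols *folr-1(syb4116)* libraries; *mup-2* moves from 50.1% to 53.2% on average and *tnt-2* from 41.5% to 38.5%, with no overlap, while *unc-27* overlaps at 77.6% and 77.2%.

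The regulatory light chain genes *mlc-2* (C36E6.5, WBGene00003370) and *mlc-1* (C36E6.3, WBGene00003369) are divergent neighbours on chromosome X, at 17455792 to 17456586 on the minus strand and 17459210 to 17460778 on the plus strand, with 2623 bp between them. They code for nearly identical proteins, so reads may be shared between them. The CPM of *mlc-2* was 783, 790.0 and 820.1 in N2 and 861, 811 and 853 in the mutant. N2 replicate 3 was above mutant replicate 2, so the ranges overlapped. The log2 fold change was 0.08 (SE 0.037), with an unadjusted p of 0.0499 and an adjusted p of 0.247 (edgeR quasi-likelihood, Benjamini-Hochberg). The exons of *mlc-2* overlap those of C36E6.2 on the opposite strand by 77 bp, and that gene had 252 to 297 counts per library.

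*mlc-1* had CPM of 1067, 1067 and 1050.3 in N2 and 1098, 1038 and 1096 in the mutant. The mutant values lay on both sides of the N2 values, and the log2 fold change of 0.02 (SE 0.035) had an adjusted p of 0.791 (edgeR quasi-likelihood, Benjamini-Hochberg). *mlc-2* took 57.5% ± 0.815 of the summed regulatory light chain FPKM in N2 and 58.5% ± 0.0871 in the mutant (SD, n = 3), with overlap. Per length, then, *mlc-2* was the more abundant of the pair in both strains, whereas *mlc-1* had more counts on its longer transcript.

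The essential light chain gene *mlc-3* (F09F7.2, WBGene00003371) lies on chromosome III at 5565025 to 5567382 on the plus strand and has 3 annotated transcripts. Its CPM was 1156, 1108 and 1167 in N2 and 1209.7, 1175 and 1164 in the mutant. Mutant replicate 3 fell within the N2 range and the other mutant libraries above it. The log2 fold change was 0.05 (SE 0.035, adjusted p = 0.480, edgeR quasi-likelihood, Benjamini-Hochberg). The ratio of *mlc-3* to both regulatory chains together differed by 0.00 on the log2 scale (exact permutation p = 0.9).

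The light chains can be set beside genes for the heavy chains of muscle and non-muscle myosin and for paramyosin. Of 9 further genes for heavy chains, paramyosin and non-muscle light chains, 0 were called higher and 5 lower, with a median log2 fold change of -0.20, against 0.05 for the 10 genes and 0.00 for all tested genes. All 5 are longer than 5000 bp. Of the 324 tested genes from 5000 bp, 3 were called higher and 82 lower. *unc-54*, the major heavy chain of body wall muscle, fell from 5607 ± 50.6 to 4598 ± 353 CPM (SD, n = 3). Its log2 fold change of -0.29 (SE 0.043) had an adjusted p of 4.12e-04 (edgeR quasi-likelihood, Benjamini-Hochberg). The pharyngeal heavy chains *myo-1* and *myo-2* fell by 0.27 and 0.20 on the log2 scale. The non-muscle heavy chains *nmy-2* and *nmy-1* fell by 0.22 and 0.21. *myo-2* was named in addition to the rule for named genes, after its values were seen.

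The remaining muscle genes of that list did not pass. *myo-3*, the second heavy chain of body wall muscle, had a log2 fold change of -0.10 (adjusted p = 0.334), and *unc-15*, the paramyosin gene, one of -0.11 (adjusted p = 0.0794, edgeR quasi-likelihood, Benjamini-Hochberg). *unc-15* passed in 3 alternatives, with adjusted p of 0.041 without mutant replicate 2 (edgeR), 0.048 by limma-voom and 0.035 without the filter on low counts (edgeR).

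Ratios to *unc-54* were formed after the fall of *unc-54* had been seen and so are given without a test. The summed FPKM of *mlc-1*, *mlc-2* and *mlc-3* was 3.18, 3.12 and 3.25 times that of *unc-54* in N2 and 4.06, 3.66 and 4.42 times in the mutant. For the summed actins the ratio was 3.51, 3.54 and 3.57 in N2 and 4.45, 4.18 and 4.81 in the mutant. Both ratios were higher in every mutant library, by 1.27-fold and 1.26-fold on average, and they spread more among the mutant than among the N2 libraries.

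**Figure D4:**
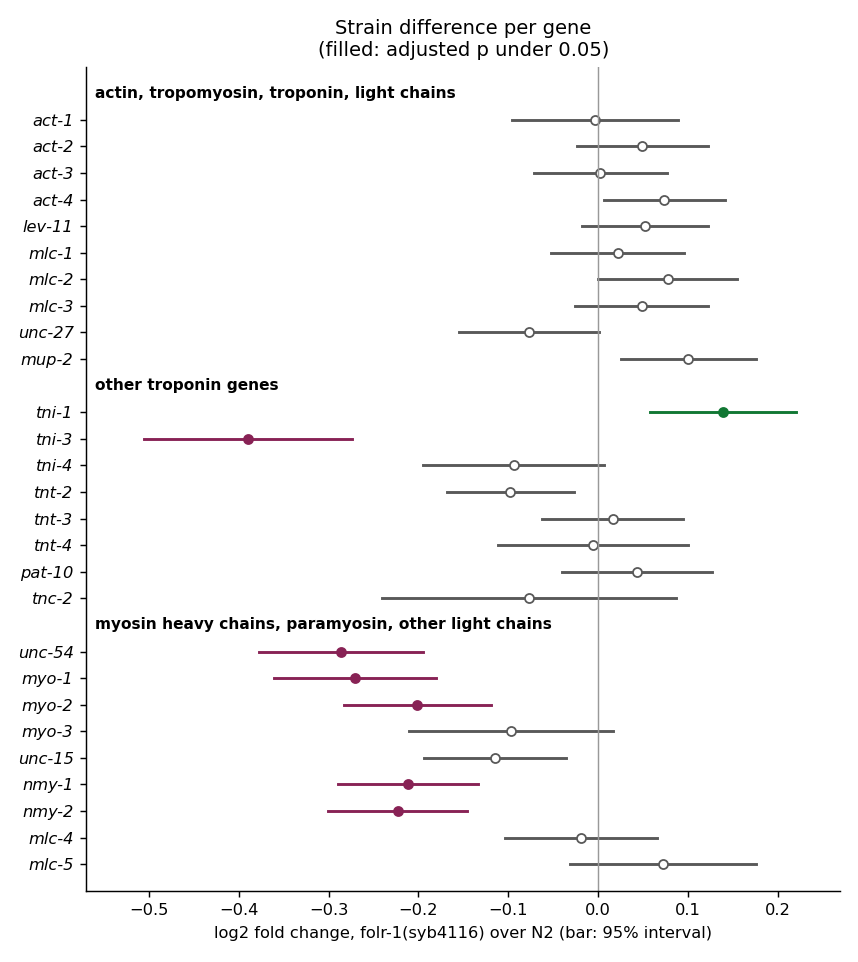
Log2 fold change of *folr-1(syb4116)* over N2 (x axis) for the 10 genes, the other troponin genes and the genes for myosin heavy chains, paramyosin and other light chains. Points are the edgeR estimates and bars their 95% intervals; filled points are genes called at an adjusted p under 0.05, of which there are 0 among the 10 genes, 2 among the other troponin genes and 5 among the myosin group.

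Gene length moved with this contrast. The heavy chain genes called lower had lengths of 6264 to 6504 bp, as implied by their counts and FPKM, whereas the 10 genes ranged from 662 bp (*mlc-2*) to 2512 bp (*lev-11*). Over all tested genes the median log2 fold change was 0.02 below 1000 bp, 0.01 from 1000 to 2000 bp, -0.01 from 2000 to 3000 bp, -0.04 from 3000 to 5000 bp and -0.08 from 5000 bp. After a trend on length was removed from each library, the fitted values of *unc-54* and *myo-1* were -0.20 (adjusted p = 0.00369) and -0.18 (adjusted p = 0.0174, edgeR quasi-likelihood, Benjamini-Hochberg). *nmy-1* and *nmy-2* were also still called, with adjusted p of 0.0319 and 0.0424, while *myo-2* was not (adjusted p = 0.108). The median of the 10 genes became 0.04, and none was called.

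**Figure D5:**
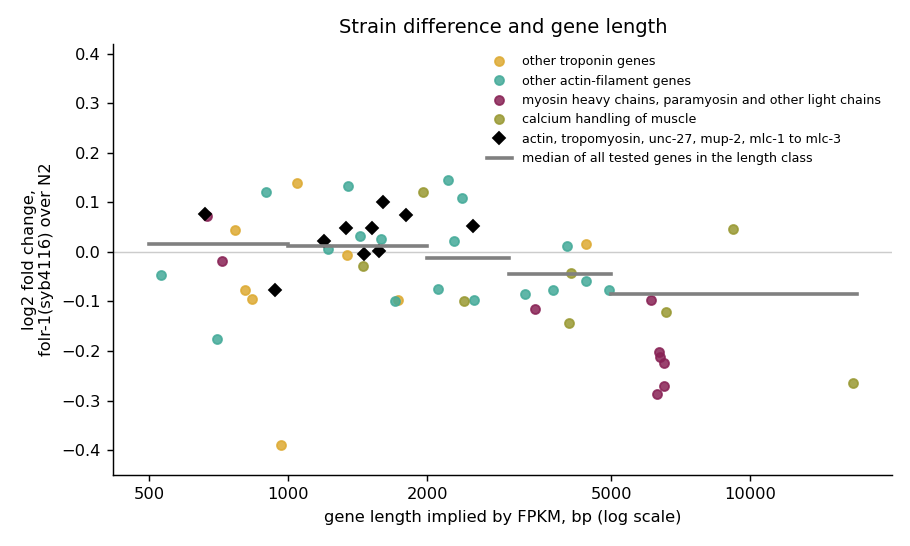
Log2 fold change of *folr-1(syb4116)* over N2 (y axis) against gene length in bp (x axis, log scale) for the 10 genes (black diamonds) and 4 lists of related genes (coloured circles). Grey lines are the medians of all tested genes in 5 length classes, which run from 0.02 to -0.08; the 10 genes lie between -0.08 and 0.10 and the called heavy chains between -0.29 and -0.20.

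Among 18 other genes of the actin filament, 2 were called higher and 1 lower, with a median log2 fold change of -0.02. These were *unc-60*, which codes for actin depolymerising factor (ADF/cofilin) proteins and rose by 0.15 on the log2 scale, *act-5*, the actin of intestinal microvilli, which rose by 0.13, and *pfn-1*, a profilin gene, which fell by 0.18. Their adjusted p were 0.0179, 0.0405 and 0.0139 (edgeR quasi-likelihood, Benjamini-Hochberg). Of the 6 fits that left out a library, *unc-60* kept the call in 2, those without N2 replicate 2 (edgeR adjusted p = 0.043) and without mutant replicate 2 (adjusted p = 0.019), with p from 0.050 to 0.073 in the others. *act-5* kept it in 2, those without N2 replicate 2 (adjusted p = 0.024) and without mutant replicate 1 (adjusted p = 0.047), with p from 0.11 to 0.14 in the others. *pfn-1* lost it without N2 replicate 2 (adjusted p = 0.070), N2 replicate 3 (adjusted p = 0.051) or mutant replicate 2 (adjusted p = 0.066). With the length correction *act-5* also lost the call (adjusted p = 0.058), and *unc-87*, which codes for a calponin-like actin-binding protein, gained it (adjusted p = 0.033).

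Of 8 genes that handle calcium in muscle, 0 were called higher and 1 lower. This was *unc-68*, the ryanodine receptor that releases calcium from the sarcoplasmic reticulum, with a log2 fold change of -0.26 (adjusted p = 4.73e-04, edgeR quasi-likelihood, Benjamini-Hochberg). It is the longest gene of the 4 lists of related genes, at 16663 bp, and was not called after the length correction (adjusted p = 0.218). *itr-1*, the inositol trisphosphate receptor gene, had a log2 fold change of 0.05, and of 0.17 after that correction (adjusted p = 0.036).

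Markers of the tissues in these animals were summed for each library. The 5 body wall muscle markers, 2 of them called lower, summed to 8935 to 8999 CPM in N2 and 7085 to 8076 in the mutant. The called markers were *unc-54*, which makes up most of this sum, and *unc-89*, which codes for a giant protein of the thick filament M-line and fell by 0.34 on the log2 scale (adjusted p = 2.78e-05, edgeR quasi-likelihood, Benjamini-Hochberg). *unc-89* was named after its values were seen and is 25808 bp long. The level of *hlh-1*, the muscle-specifying factor, was 3.28 to 4.99 CPM in N2 and 4.27 to 4.73 in the mutant. The 6 pharyngeal muscle markers, 2 of them lower, summed to 753 to 773 and 644 to 701 CPM. The called ones, *myo-1* and *myo-2*, make up most of this sum and are 6504 and 6327 bp long. After the length correction *myo-2* was not called (edgeR adjusted p = 0.108). The ranges of *ceh-22*, *tnc-2*, *tni-4* and *tnt-4* overlapped between the strains, with log2 fold changes of 0.50, -0.08, -0.09 and -0.01. The 4 intestinal markers tested, 2 of them higher, summed to 1749 to 1874 and 1912 to 2016 CPM, and the 5 epidermal markers, 1 of them higher, to 309 to 367 and 394 to 428 CPM. The 5 sperm markers, 2 of them lower, summed to 137 to 138 and 122 to 124 CPM. None of 5 neuronal and 5 germ line markers was called, with 0 and 2 at an unadjusted p under 0.05. No marker list was at 0. The summed CPM of both muscle marker lists was thus lower in every mutant library than in every N2 library. These sums are mostly *unc-54*, and *myo-1* with *myo-2*, which are also in the heavy chain list above. They are therefore not a separate result on muscle tissue. The ranges of *hlh-1* and *ceh-22* overlapped between the strains. The summed CPM of the 10 genes was not lower, being higher in the mutant on the TMM scale and overlapping as an unscaled share of counts. The part of tissue makeup in these values was not tested.

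Position on chromosome X also moved with the contrast. The 2141 tested genes of chromosome X had a median log2 fold change of 0.05, and the median was between -0.01 and 0.00 on every other chromosome. Of the 5 X-linked genes among the 10, 4 were above 0 and *unc-27* was below it. The genes on other chromosomes were split in much the same way. *act-2*, *lev-11* and *mlc-3* were each at 0.05, *act-3* at 0.00 and *act-1* at -0.00. The part of chromosome in the values of the 10 genes was not tested.

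The precision behind these values can be read from the genes at a similar level. The smallest count of any of the 10 genes gave a counting error of 0.410% to 0.910%, below the replicate spread. Their median coefficient of variation was 2.0% in N2 and 2.51% in the mutant. Outside the 10, 275 tested genes had a mean CPM at or above that of the lowest of the 10. Of these 275, 69 were called higher and 20 lower, or 32.4%. The smallest absolute log2 fold change called among them was 0.12, and their median absolute log2 fold change was 0.09, against 0.05 for the 10 genes.

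Over the 6 libraries, the mean of the 10 genes' centred log2 CPM was -0.04, -0.02 and 0.00 in N2 and 0.05, -0.01 and 0.01 in the mutant. The tested genes outside the set with the most similar pattern were C01H6.3, T13B5.9, *rps-24*, *drd-1* and D1007.10, with Pearson r from 0.983 to 0.997. Of 15422 genes compared, 110 had an r above 0.9, or 0.713%. The correlations are over 6 libraries that share depth and scaling, and 3 of the 5 genes had a mean below 10 CPM.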

How the data were processed

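Libraries of N2 and *folr-1(syb4116)* L4 animals (n = 3 each) were processed by the authors with fastp, HISAT2 and featureCounts on WBcel235, and whole-number read counts per gene were deposited without normalization. The deposited FPKM values were also made by the authors from these counts and gene lengths. The library protocol names directional and non-directional kits, and the strand setting of the counting and the annotation release are not given in the sources used here. Symbols and positions came from Ensembl release 115, which matched 46183 of the 46661 genes. Gene lengths were those implied by count and FPKM, and lay within 1 bp of that annotation for 25.5% of genes. There were 0 rows that named no gene.

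Counts were filtered (filterByExpr), scaled by TMM and tested with the quasi-likelihood test of edgeR 4.0.16 in R 4.3.3, with strain as the only term and Benjamini-Hochberg adjustment over all 15432 genes tested. Shares and ratios were compared with two-sided exact permutation tests (scipy 1.17.1). P-values measure the spread between these biological replicates. The procedure was tested on simulated data with planted changes larger than any fitted difference among the 10 genes. That test therefore does not cover differences of their size. The alternatives were DESeq2 1.42.0 with its own or TMM size factors, limma-voom and limma 3.58.1 on log2(FPKM + 1) and log2(FPKM + 0.1), RLE factors, no filter, at least 10 counts in every library, a replicate block, a length correction (lowess, span 0.3) alone or with that block, omission of each library, and an adjusted p under 0.005 with an absolute log2 fold change over 1.

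The 10 genes and the lists of related genes and markers were chosen with earlier results of these data known. Named were all 10, at most 4 called genes a list by adjusted p, partner subunits, and the 5 genes of most similar pattern. Others named were *myo-2*, *tnt-2*, *unc-87*, *itr-1*, *unc-89*, *hlh-1* and *ceh-22*, chosen after their values were seen. One intestinal marker, *opt-2*, was not matched.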

Additional observations from a re-analysis of the deposited data

How the results depend on the processing

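None of the 10 genes was called under any of the 17 alternative fits, in which the smallest adjusted p was 0.0698 (*mup-2*, limma-voom), nor under the stricter threshold. The direction of 8 genes was the same in all 17. That of *act-1*, with a log2 fold change of -0.00 in the main comparison, ran from -0.0446 to 0.0438 with 1 library left out, and was positive without N2 replicate 3 (0.04) or *folr-1(syb4116)* replicate 2 (0.02). That of *act-3* ran from -0.0156 to 0.0175 with 1 library left out. It was -0.00478 with the length correction and -0.00501 with the length correction and the replicate block. The cause was not tested.

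The sample labels do not say whether same-numbered libraries were handled together. The deviations of same-numbered libraries correlated at -0.0232, -0.0450 and 0.0133, so no shared effect of replicate number was seen. With the replicate block 0 of the 10 genes were called higher and 0 lower. The log2 fold change of *mup-2* was then 0.10 and that of *unc-27* was -0.08. The differences of the 5 ratios (0.06, -0.00, 0.05, 0.00 and -0.18) are the same by arithmetic when libraries are paired. They therefore give no test of the pairing. Among the lists, *tni-1* lost its call with the block (edgeR adjusted p = 0.070). Both limma fits on FPKM called 0 genes of every list, and limma-voom called 2 actin-filament genes lower. With the length correction and the block, 2 heavy chains were called lower.

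In the main edgeR fit, differences under about 0.12 on the log2 scale were not called at this level of expression. Some alternatives called smaller ones, such as *unc-15* at -0.11 without the filter on low counts (edgeR adjusted p = 0.035). An absence of calls therefore does not show equal levels. Reads shared among the actins, or between *mlc-1* and *mlc-2*, cannot be separated in gene counts, nor can isoforms of *lev-11*.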
